A study of Mus musculus with 5 samples.

Results

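The Rab genes encode small GTPases that mark the membranes of the cell. They were taken as every protein-coding gene whose symbol in the GRCm38 annotation is Rab, then a number, then at most 1 letter and 1 digit. This rule, which uses no expression value, gave 59 of the 21974 protein-coding genes in the count table. RNA was sequenced from common lymphoid progenitors (CLPs), the marrow cells that give rise to lymphocytes, sorted as lineage-negative, CD127+ and Flt3+. There were 3 libraries labelled SF1, from mice with SclCre and the activated kinase JAK2-V617F, and 2 libraries from wild-type (WT) mice. Marrow of both groups was taken 16 weeks after tamoxifen. Scl, whose name the Cre carries, is a gene of blood stem and progenitor cells. Whether the WT mice carried the Cre, the age, sex and strain of the mice, and whether a library is 1 animal or a pool are not stated by the labels, so p-values measure only the spread between these libraries.

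A Rab protein cycles between a GTP-bound form on a membrane and a GDP-bound form held in the cytosol. Exchange factors load it with GTP, GTPase-activating proteins switch it off, GDP dissociation inhibitors (GDIs) take it off the membrane, and effectors bind the active form to tether, move or fuse vesicles. Each compartment has its own set: endosomal Rabs sort receptors taken up from the surface, Rabs of the endoplasmic reticulum (ER) and Golgi carry newly made protein, and a further set moves the granules and lysosome-related organelles of blood cells. Rab27a, for example, is needed for granule release by killer lymphocytes.

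Total counts were between 8894288 and 20424296 per library, and 14423 genes passed the filter on low counts and were tested. Levels are read counts scaled to library size by TMM (CPM). Each log2 fold change compares SF1 with WT, positive when SF1 is higher, and comes with a standard error (SE) and a 95% interval. A gene is called when its Benjamini-Hochberg adjusted p over all genes tested is under 0.05 in the quasi-likelihood test of edgeR, and every adjusted p here is from that test unless another is named. The sort genes were present in every library, with Il7r (CD127) between 331 and 465 CPM and Flt3 between 1511 and 1700 CPM. Markers of other blood cells differed between the groups. The 10 neutrophil markers summed to between 2026 and 5356 CPM in SF1 and to 902 and 1139 CPM in WT. Of them 9 were called higher and none was at 0. Mpo, the marker not called, made up most of the WT sums, at 779 and 988 CPM. The 6 monocyte markers summed to between 208 and 317 CPM in SF1 and to 79.5 and 115 CPM in WT, with 5 of 5 tested called higher. The 6 plasmacytoid dendritic markers summed to between 937 and 1138 CPM in SF1 and to 560 and 638 CPM in WT, with 4 of 5 tested called higher and Klk1 at 0 in SF1. The 6 B-lineage markers summed to between 459 and 713 CPM in SF1 and to 897 and 1001 CPM in WT, with 5 called lower and none at 0. The 6 erythroid markers summed to between 2.54 and 5.42 CPM in SF1 and to 64.2 and 44.0 CPM in WT, with 5 of 5 tested called lower and Hba-a2 at 0 in SF1. The 6 macrophage markers summed to between 4.82 and 8.92 CPM in SF1 and to 18.3 and 26.3 CPM in WT, with 4 called lower and Cd5l at 0 in SF1. The part of these cells in the Rab results was not tested. In such bulk samples, fewer cells of a type and less RNA per cell cannot be told apart.

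Of the 59 Rab genes, 48 were tested, and 7 of them were higher in SF1: Rab21, Rab24, Rab7b, Rab44, Rab27a, Rab12 and Rab20. None was called lower and 41 did not pass. The 7 calls are 14.6% of the tested Rab genes, against 16.5% of all genes tested. By direction, 6.77% of all genes tested were called higher and 9.74% lower. The median log2 fold change of the tested Rab genes was 0.09, against 0.02 over all genes tested. The count of lower calls was 0 by edgeR and by limma voom and 1 by DESeq2, with 2 genes lower at an unadjusted p under 0.05 in the edgeR fit. For 18 tested Rab genes (37.5%) every SF1 library lay on the same side of both WT libraries, 13 of them higher in SF1 and 5 lower, against 49% of all genes tested. The number called higher was 4 without SF1 replicate 2 and 3 without SF1 replicate 3. These are 8.7% and 6.52% of the Rab genes tested there, against 8.79% and 9.19% of all genes called in those fits. Without WT replicate 2 the median log2 fold change of the Rab genes was 0.106.

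**Figure D1:**
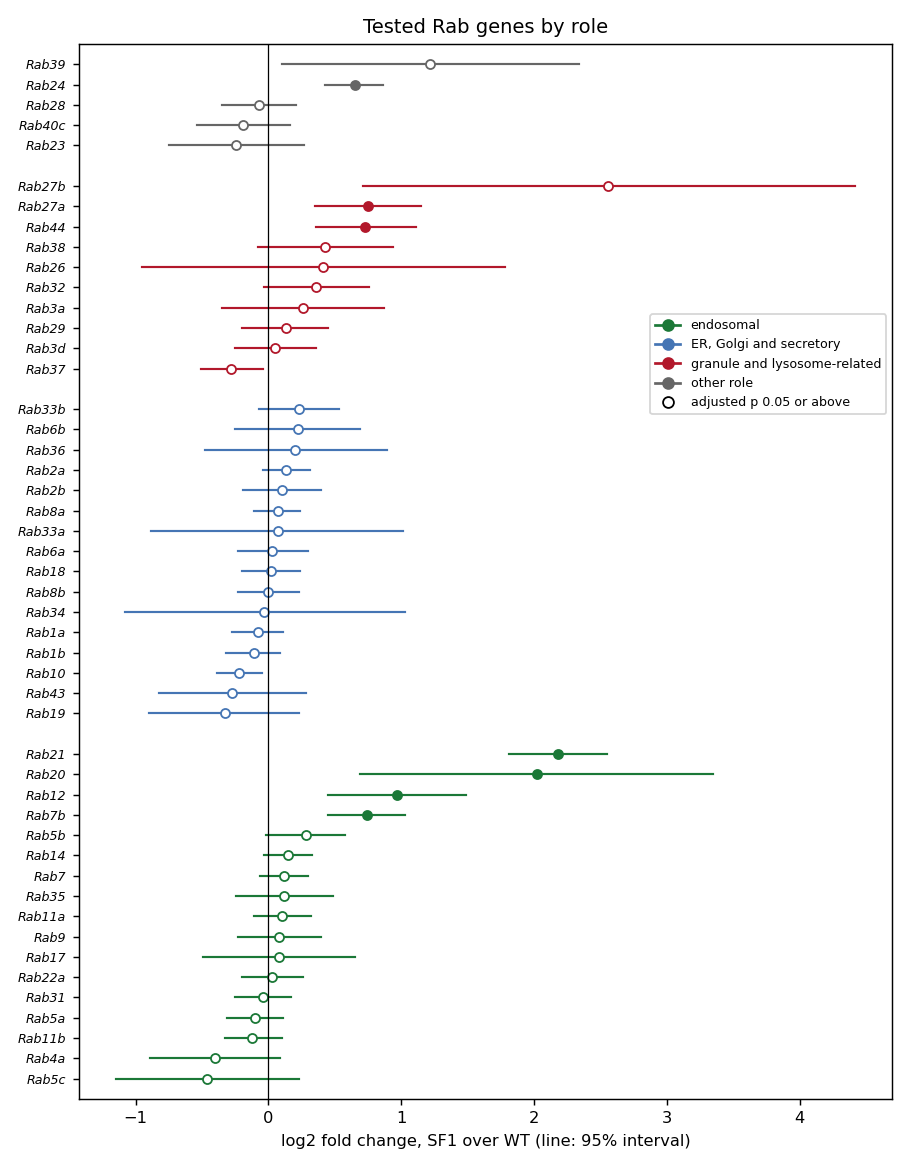
Log2 fold change of SF1 over WT (horizontal axis) for the 48 tested Rab genes, grouped by role, with 95% intervals as lines and filled points for genes with an adjusted p under 0.05 by edgeR. The 7 filled points all lie to the right of 0, with Rab21 at 2.18, and no gene of the ER, Golgi and secretory group is filled.

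Endosomal Rab genes held 4 of the 7 calls. Of 21 members, 17 were tested, 4 rose (Rab21, Rab7b, Rab12 and Rab20), none fell and 13 did not pass, with a median log2 fold change of 0.10. The calls are 23.5% of those tested, against 16.5% of all genes called in either direction and 6.77% called higher. No endosomal member was lower at an unadjusted p under 0.05 in the edgeR fit, and none was called lower by DESeq2 or limma voom. Leaving out SF1 replicate 2 or SF1 replicate 3 left 2 higher calls. That is 11.8% of those tested, against 8.79% and 9.19% of all genes called in those fits. Without WT replicate 2 the median log2 fold change was 0.165.

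Rab21, an early endosome Rab that carries integrins back from the surface, had the most significant change of the family. Rab21 (ENSMUSG00000020132, GRCm38 chromosome 10, 115287084 to 115315594, minus strand) was at 58.5, 65.9 and 71.6 CPM in SF1 replicates 1, 2 and 3 and at 16.4 and 11.8 CPM in WT replicates 1 and 2. Every SF1 library thus stood well above both WT libraries. The counts behind these values were 550, 752 and 779 in SF1 and 325 and 104 in WT. Rab21 rose 4.54-fold (log2 fold change 2.18, SE 0.16, interval 1.81 to 2.55, adjusted p = 0.000196), a larger fold than any other called Rab gene. The call was kept in all 13 alternatives run, with log2 fold changes between 1.99 and 2.46. The 6 other tested genes within 500 kb of Rab21 were not called, with log2 fold changes between -0.13 and 0.91. Among them Tbc1d15, which encodes a GTPase-activating protein for Rab7 and lies 35.6 kb away, was at 0.01 (adjusted p = 0.976). On the scale of level per length, Rab21 was at 12.9 CPM per kb in SF1 and 2.79 CPM per kb in WT.

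Rab7b, a Rab of late endosomes and lysosomes that acts on transport towards the Golgi, was even across the SF1 libraries. It was at 52.1, 52.4 and 52.9 CPM in SF1 and at 27.7 and 35.5 CPM in WT, with no overlap. Rab7b (chromosome 1, 131688695 to 131715439) rose 1.67-fold (log2 fold change 0.74, SE 0.13, adjusted p = 0.00611), and its call was kept in all 13 alternatives, with adjusted p-values up to 0.0482. Rab7, the main late endosome Rab, was at 174, 186 and 174 CPM in SF1 and 159 and 169 CPM in WT (log2 fold change 0.12, interval -0.06 to 0.30, adjusted p = 0.341). Of the summed level per length of Rab7 and Rab7b, Rab7b held between 13.7% and 14.7% in SF1 and 8.95% and 10.6% in WT.

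Rab12, which acts between recycling endosomes and lysosomes and in the turnover of the transferrin receptor, was at 27.3, 34.9 and 30.2 CPM in SF1 and 19.7 and 10.9 CPM in WT. The groups did not overlap, and the WT libraries differed more between themselves than the SF1 libraries did. Rab12 (chromosome 17, 66494512 to 66519729) rose 1.96-fold (log2 fold change 0.97, SE 0.23, adjusted p = 0.0216). The call was lost without SF1 replicate 2 (adjusted p = 0.0809), SF1 replicate 3 (0.0611) or WT replicate 2 (0.0527), where the log2 fold change was 0.64. Without WT replicate 1 the log2 fold change was 1.5.

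Rab20, a Rab of phagosomes and early endosomes, was the least abundant called member. Its counts were 21, 37 and 37 in SF1 and 22 and 1 in WT, or 2.23, 3.24 and 3.40 CPM against 1.11 and 0.114 CPM. The groups did not overlap, but WT replicate 2 rests on a single read. Rab20 (chromosome 8, 11453518 to 11478710) had a log2 fold change of 2.02 (SE 0.59, interval 0.69 to 3.35, adjusted p = 0.0472). Of the 12 alternatives that tested it, 7 lost the call (adjusted p between 0.0535 and 0.118 there), among them the omission of SF1 replicate 1, SF1 replicate 2, SF1 replicate 3 or WT replicate 2. With WT replicate 2 left out the log2 fold change was 1.41, and with WT replicate 1 left out it was 4.56 (adjusted p = 0.0167). The antisense gene E230013L22Rik shares 356 bases of its exons with Rab20, 25.6% of Rab20's exon length. The libraries do not mark the strand.

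The other endosomal Rabs did not pass. Among them were Rab5a, Rab5b and Rab5c, which mark early endosomes, and Rab4a, Rab11a, Rab11b, Rab14 and Rab35, which recycle cargo to the surface. Rab5b was at 33.2, 27.4 and 30.5 CPM in SF1 and 25.9 and 23.9 CPM in WT (log2 fold change 0.28, adjusted p = 0.18). Rab5c turned on a single WT library. It was at 17.98, 19.7 and 15.9 CPM in SF1 and 14.99 and 35.4 CPM in WT. Its log2 fold change of -0.46 (adjusted p = 0.333) was -0.99 without WT replicate 1 (adjusted p = 0.0136) and 0.25 without WT replicate 2 (adjusted p = 0.496). Rab5c held 47.4% of the summed level per length of the Rab5 genes in WT replicate 2, against between 27.3% and 33.7% in the other 4 libraries. Rab14 was at 277, 294 and 267 CPM in SF1 and 242 and 261 CPM in WT (log2 fold change 0.15, interval -0.03 to 0.33, adjusted p = 0.236). Rab11a was at 88.7, 104 and 99.9 CPM in SF1 and 90.8 and 90.9 CPM in WT (log2 fold change 0.10, interval -0.11 to 0.32, adjusted p = 0.499; -0.08 after GC and length correction).

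**Figure D2:**
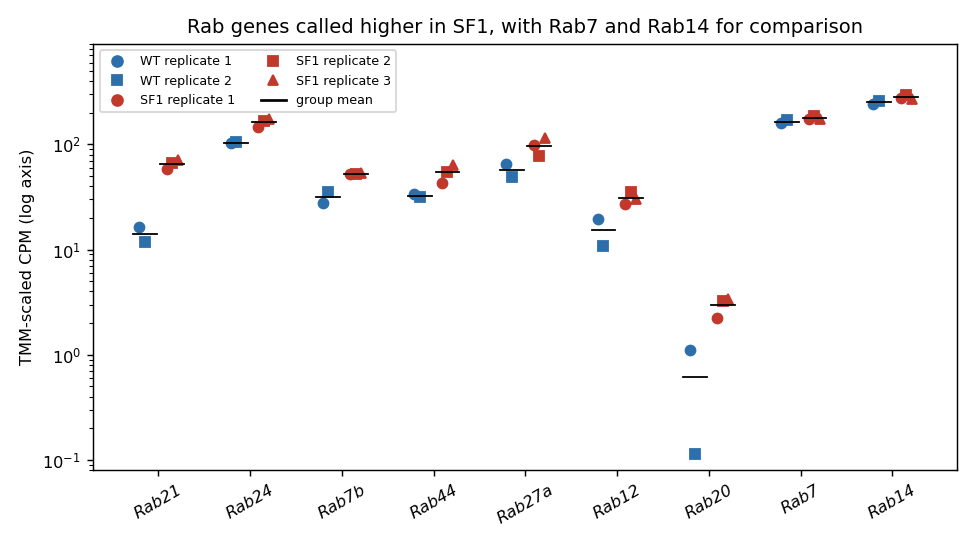
TMM-scaled CPM on a log axis in each library for the 7 Rab genes called higher in SF1, ordered by p, and for Rab7 and Rab14; points are libraries and black lines group means. The SF1 points lie above the WT points for all 7 called genes, from Rab24 above 100 CPM to Rab20 below 4 CPM.

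The promoters of called members are shown because these genes changed in the same direction. Of the 59 members, 48 had an entry in the RefSeq promoter table (GRCm38.p6), which gives 250 bases before to 50 bases after each start. Among the called members these are Rab12, Rab20, Rab21, Rab24 and Rab27a. Motifs searched on both strands were the E-box CACGTG, the ETS core GGAAGT, the STAT motif TTCNNNGAA, the C/EBP motif TTGCNNAA and the IRF motif. The letters of these motifs do not overlap in the windows printed. They run 5′ to 3′ on the gene's strand, with E-box and ETS matches in capitals.
Rab21 (chr10:115315542-115315841, minus strand): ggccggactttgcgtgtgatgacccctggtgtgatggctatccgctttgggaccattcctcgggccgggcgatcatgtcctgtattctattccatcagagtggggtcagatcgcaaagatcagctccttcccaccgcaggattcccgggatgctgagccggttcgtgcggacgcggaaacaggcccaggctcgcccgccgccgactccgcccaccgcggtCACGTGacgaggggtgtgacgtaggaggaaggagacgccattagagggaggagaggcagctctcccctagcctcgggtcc
Rab20 (chr8:11478591-11478890, minus strand): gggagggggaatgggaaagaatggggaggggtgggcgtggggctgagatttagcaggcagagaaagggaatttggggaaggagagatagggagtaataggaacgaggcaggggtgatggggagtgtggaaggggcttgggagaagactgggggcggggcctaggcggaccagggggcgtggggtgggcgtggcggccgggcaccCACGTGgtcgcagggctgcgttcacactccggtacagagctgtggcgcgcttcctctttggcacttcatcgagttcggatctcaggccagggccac
Rab24 (chr13:55321931-55322230, minus strand): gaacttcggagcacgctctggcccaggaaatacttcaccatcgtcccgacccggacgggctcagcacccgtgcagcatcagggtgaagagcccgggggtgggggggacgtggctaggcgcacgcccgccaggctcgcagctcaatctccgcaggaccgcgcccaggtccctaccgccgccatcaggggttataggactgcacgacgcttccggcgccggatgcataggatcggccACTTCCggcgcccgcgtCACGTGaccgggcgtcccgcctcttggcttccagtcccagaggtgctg
Rab27a (chr9:73044560-73044859, plus strand): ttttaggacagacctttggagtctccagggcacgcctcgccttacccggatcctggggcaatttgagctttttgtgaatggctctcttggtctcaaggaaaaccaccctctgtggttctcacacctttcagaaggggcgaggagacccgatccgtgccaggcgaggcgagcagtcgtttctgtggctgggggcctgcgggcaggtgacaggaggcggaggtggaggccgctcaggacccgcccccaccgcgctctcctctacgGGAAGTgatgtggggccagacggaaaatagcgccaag
The E-box lies 30 bases before the start in Rab21, 46 bases before it in Rab20 and at base 3 after it in Rab24. A second Rab27a window, not printed, holds it 246 bases before its start. In all, 4 of the 6 windows of called members hold CACGTG. The 60 windows of all Rab genes, which include these 6, hold it in 6. It is in 7.15% of the 32851 windows in the table. The Rab12 window, not printed, holds no match to any motif searched, and Rab7b and Rab44 had no window. These counts were looked at after the calls were known. GGAAGT is in the Rab24 window and in both Rab27a windows, and in 23.8% of all windows. No match to the STAT, C/EBP or IRF letters was found in the windows of called members. These letters are in 8.3%, 10.8% and 3.44% of all windows. A match is a description of the sequence and not a binding site.

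Granule and lysosome-related Rab genes held 2 of the 7 calls, Rab44 and Rab27a. Of 12 members, 10 were tested, 2 rose, none fell and 8 did not pass. Their median log2 fold change was 0.39, and 9 of the 10 were above 0, against 7520 of the 14423 genes tested. The 2 calls are 20% of those tested, against 16.5% of all genes called in either direction and 6.77% called higher. This median was 0.18 without SF1 replicate 2, 0.27 without SF1 replicate 3, 0.26 without WT replicate 1 and 0.22 after GC and length correction. It was 0.412 without WT replicate 2. The 9 above 0 include Rab26 and Rab27b, which had few reads. Rab26 had 3, 14 and 13 counts in SF1 and 14 and 6 in WT (interval -0.95 to 1.78). With the stricter filter on low counts, 7 of the 8 members tested were above 0, and the median was 0.335. With no lower call by edgeR, DESeq2 or limma voom, 1 member (Rab37) was lower at an unadjusted p under 0.05 in the edgeR fit. The number of higher calls was 3 without SF1 replicate 1, 1 without SF1 replicate 2 or WT replicate 1, and 0 without SF1 replicate 3 or WT replicate 2. There 2 and 3 members were higher at an unadjusted p under 0.05.

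Rab44, an unusually large Rab with calcium-binding motifs that is made in granulocytes and mast cells, was at 43.0, 55.1 and 64.2 CPM in SF1 and 33.5 and 31.4 CPM in WT. All SF1 libraries were higher than both WT libraries. Rab44 (chromosome 17, 29114145 to 29148980) rose 1.66-fold (log2 fold change 0.73, SE 0.16, adjusted p = 0.0175). The call was lost without SF1 replicate 2 (adjusted p = 0.0628), SF1 replicate 3 (0.0528), WT replicate 1 (0.076) or WT replicate 2 (0.065), at log2 fold changes between 0.59 and 0.78.

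Rab27a, which docks granules at the surface membrane, was at 98.3, 77.2 and 115 CPM in SF1 and 65.1 and 49.0 CPM in WT, again with no overlap. Rab27a (chromosome 9, 73044854 to 73097629) rose 1.68-fold (log2 fold change 0.75, SE 0.18, adjusted p = 0.0216). Its adjusted p was 0.0671 when SF1 replicate 3 was left out and 0.0957 when WT replicate 2 was, so both omissions ended the call. Its close relative Rab27b had 5, 11 and 11 counts in SF1 and 4 and 0 counts in WT. Rab27b did not pass (log2 fold change 2.56, interval 0.71 to 4.42, adjusted p = 0.0647), but passed by limma voom (adjusted p = 0.0376). Rab27a held at least 99.5% of the summed level per length of the pair in every library.

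Of the 10 neutrophil markers, 9 were also higher in SF1. Mpo was not, at 774, 809 and 990 CPM in SF1 and 779 and 988 CPM in WT (adjusted p = 0.857). The lactoferrin gene Ltf was at 178, 251 and 568 CPM in SF1 and 14.4 and 16.5 CPM in WT, and S100a9 at 224, 317 and 876 CPM against 19.0 and 21.4 CPM. SF1 replicate 3 was the highest of the 5 libraries for Ltf and S100a9, and also for 6 of the 7 called Rab genes of any role, all but Rab12. As the 7 were called higher in SF1, an SF1 library being highest is expected, and the share over all genes was not counted. For Rab7b the SF1 libraries differed little, at 52.1, 52.4 and 52.9 CPM. The order of SF1 replicates 1 and 2 differed between Ltf and Rab27a, which was higher in SF1 replicate 1 than in SF1 replicate 2. Of the mast cell, basophil and eosinophil markers, the mast cell protease gene Cpa3 was between 4.47 and 6.53 CPM in SF1 and at 5.79 and 6.83 CPM in WT. The 6 markers of that list summed to between 17.3 and 45.2 CPM in SF1 and to 15.3 and 20.3 CPM in WT. Epx was at 0 in WT, and 1 of 4 tested was called higher. That gene, Prg2, was at 0.425, 28.6 and 5.88 CPM in SF1 and 0.252 and 0.114 CPM in WT (adjusted p = 0.0399). Mcpt8, Cpa3 and Gata2 did not pass (log2 fold change 0.84, -0.18 and -0.34). The part of such cells in the Rab44 and Rab27a values was not tested.

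The other granule Rabs did not pass. Rab32, which with Rab38 and the related Rab29 serves lysosome-related organelles, was at 41.5, 63.0 and 60.3 CPM in SF1 and 40.4 and 45.3 CPM in WT. SF1 replicate 1 lay between the WT libraries, and Rab32 passed only when that library was left out (log2 fold change 0.53, adjusted p = 0.0242, against 0.36 and 0.189 with it). Rab38 was at 14.3, 18.04 and 18.7 CPM in SF1 and 9.91 and 15.8 CPM in WT (adjusted p = 0.233), and Rab29 at 22.6, 28.1 and 26.2 against 25.2 and 21.6 CPM (adjusted p = 0.602). Rab3d and Rab3a, Rabs of regulated secretion, overlapped between the groups. Rab3d was at 38.1, 38.4 and 45.8 CPM in SF1 and 42.9 and 35.3 CPM in WT (log2 fold change 0.05, interval -0.25 to 0.36, adjusted p = 0.832). Rab3a was at 4.68, 7.79 and 6.53 CPM in SF1 and 5.08 and 5.58 CPM in WT (adjusted p = 0.554). Rab37, found on secretory granules, pointed the other way. It was at 44.1, 41.3 and 42.6 CPM in SF1 and 53.6 and 49.7 CPM in WT (log2 fold change -0.28, interval -0.51 to -0.04, adjusted p = 0.103).

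ER, Golgi and secretory Rab genes held no call. Of 18 members, 16 were tested and none passed in either direction, against 16.5% of all genes tested. The median log2 fold change was 0.03, with single values between -0.33 and 0.23. At an unadjusted p under 0.05 in the edgeR fit there were 0 higher and 1 lower, Rab10. DESeq2 called 1 lower (Rab10) and limma voom none. The depth was enough to bound most of them: for 14 of the 16 the interval of the log2 fold change lay between -1 and 1, and for 9 between -0.5 and 0.5. The 2 genes with wider intervals, Rab33a and Rab34, had few reads.

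Rab10, which carries vesicles from the Golgi and recycling endosomes to the surface, came closest to a lower call. It was at 342, 318 and 314 CPM in SF1 and 380 and 378 CPM in WT, without overlap (log2 fold change -0.22, SE 0.07, adjusted p = 0.0741). It passed by DESeq2 (adjusted p = 0.0495) and after GC and length correction (-0.32, adjusted p = 0.0201). Rab2a, needed for ER to Golgi traffic, was at 248.9, 259 and 268 CPM in SF1 and 231 and 242 CPM in WT (log2 fold change 0.13, interval -0.04 to 0.31, adjusted p = 0.277; -0.09 after GC and length correction). For Rab1a and Rab1b, which act at the entry of the Golgi, the intervals were -0.27 to 0.11 and -0.32 to 0.09. For Rab8a, which acts in transport to the surface, the interval was -0.11 to 0.24.

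Rab24, an atypical Rab linked to autophagy, was the only call among the 5 tested members with other roles (8 in all). That is 20% of those tested, against 16.5% of all genes called in either direction and 6.77% called higher. The median log2 fold change of these 5 was -0.07. Rab24 was at 147, 167 and 175 CPM in SF1 and at 104 and 105 CPM in WT, with no overlap and little spread in WT. Rab24 (chromosome 13, 55319743 to 55321946) rose 1.57-fold (log2 fold change 0.65, SE 0.10, interval 0.43 to 0.86, adjusted p = 0.00301), and the call was kept in all 13 alternatives. Its exons share 1258 bases, 62.4% of their length, with Prelid1 on the opposite strand, so reads of these genes cannot be fully told apart. Prelid1 itself was at 211, 228 and 229 CPM in SF1 and 199 and 195 CPM in WT (log2 fold change 0.18, adjusted p = 0.154). Rab39, a Rab of autophagy and phagosomes, was at 2.13, 2.28 and 2.94 CPM in SF1 and 0.604 and 1.71 CPM in WT (log2 fold change 1.22, interval 0.10 to 2.34, adjusted p = 0.13). Rab40c, which joins a ubiquitin ligase, was at 39.4, 27.6 and 33.0 CPM in SF1 and 40.2 and 35.5 CPM in WT (adjusted p = 0.435).

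Levels per length put the secretory Rabs first. Over all 5 libraries the order began with Rab2a at 117 CPM per kb, Rab10 at 98.5, Rab1b at 72.2, Rab24 at 69.2 and Rab7 at 66.1 CPM per kb. Rab24 stood above Rab1b in SF1 (80.9 against 70.0 CPM per kb) and below Rab7 in WT (51.7 against 62.9 CPM per kb). Rab8a at 52.6 and Rab1a at 48.4 CPM per kb followed. For Rab24, 62.4% of the exon length is shared with Prelid1 on the opposite strand. Its level per length and rank, and the sums that include it, are therefore uncertain. Rab32 and Rab27a were the most abundant granule Rabs, at 21.4 and 20.8 CPM per kb, and their order differed between the groups: Rab27a was above Rab32 in SF1 (24.9 against 23.5 CPM per kb) and below it in WT (14.7 against 18.3 CPM per kb). The ER, Golgi and secretory members held between 49.6% and 51.2% of the summed Rab level per length in SF1 and 54.9% and 55.0% in WT. The granule members held between 10.3% and 12.2% in SF1 and 9.85% and 9.26% in WT, and the endosomal members between 27.1% and 28.3% in SF1 and 26.6% and 27.5% in WT. In absolute terms the secretory sum was between 477 and 489 CPM per kb in SF1 and 484 and 496 CPM per kb in WT, so these ranges overlapped. The granule sum was between 95.6 and 120 CPM per kb in SF1 and 86.9 and 83.5 CPM per kb in WT, with no overlap. The endosomal sum, between 261 and 273 CPM per kb in SF1 and at 235 and 248 CPM per kb in WT, did not overlap either. Nor did the sum of members with other roles, between 98.0 and 110 CPM per kb in SF1 and at 76.1 and 75.4 CPM per kb in WT. Most of that sum was the called gene Rab24, at means of 80.9 CPM per kb in SF1 and 51.7 CPM per kb in WT. The endosomal and granule sums include called genes too, and 49% of all genes tested had no overlap.

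Close relatives were mostly used in steady proportions. Rab2a held between 90.6% and 92.1% of the Rab2 level per length over the 5 libraries, Rab6a between 87.1% and 90.4% of the Rab6 level and Rab11a between 64.3% and 71.7% of the Rab11 level. For each of these pairs the SF1 and WT ranges overlapped. Rab2b shares 59.3% of its exon length with Gm43766 on the opposite strand, and Rab6a shares 19.0% with Mrpl48. Reads there cannot be fully told apart, so the Rab2 and Rab6 shares are uncertain in size. At the low end, 11 members did not reach the filter. Rab3c and Rab9b had no reads in any library, where 3 counts are between 0.151 and 0.342 CPM. Rab3b had 3 reads in SF1 replicate 2 and none elsewhere, and Rab25, an epithelial Rab, 2 reads in all libraries together. The others were Rab4b, Rab13, Rab15, Rab30, Rab39b, Rab40b and Rab42, with between 0 and 18 reads a library.

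**Figure D3:**
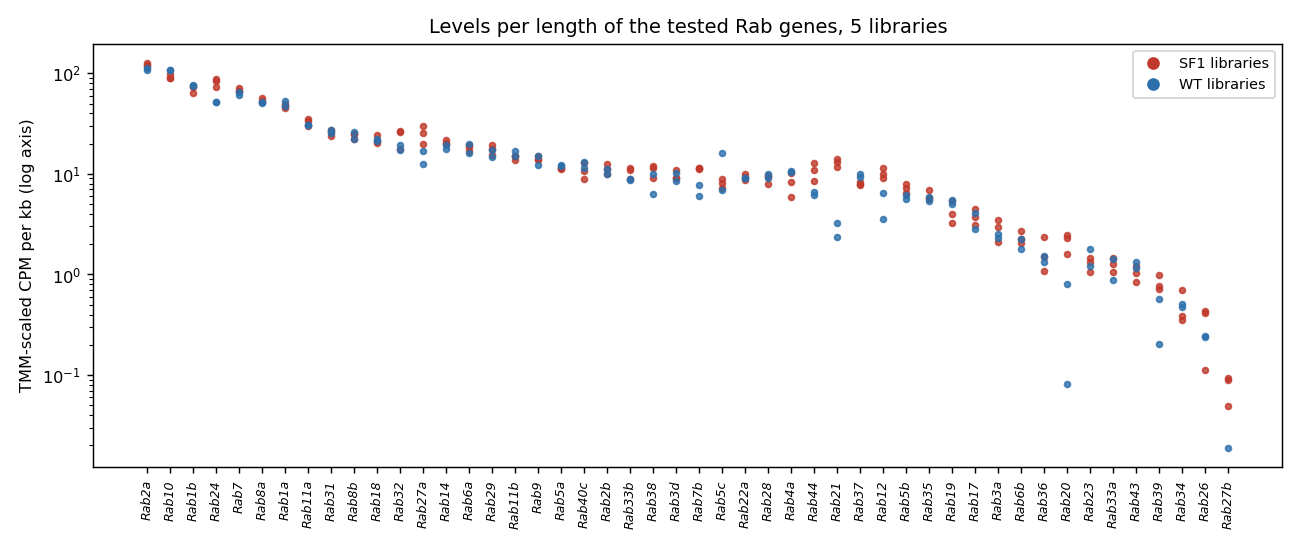
TMM-scaled CPM per kb of exon on a log axis for the 48 tested Rab genes in order of their mean level, with 1 point per library (red SF1, blue WT). Rab2a leads at 117 CPM per kb, and Rab21, Rab12 and Rab20 show both blue points below the red ones; Rab27b in WT replicate 2 is at 0 and not drawn.

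Genes that run the Rab cycle went both ways. The 8 genes for GDIs, escort and prenylation had a median log2 fold change of 0.00. The escort genes Chm and Chml and the receptor gene Rabac1, which frees Rabs from GDI, did not pass (adjusted p = 0.286, 0.633 and 0.204).

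Exchange factor genes went both ways. Of 46 tested of 47, 10 fell, 3 rose and 33 did not pass, with a median log2 fold change of -0.14, and 28.3% were called, against 16.5% of all genes tested. After GC and length correction 4 were lower and 4 higher, with 17.4% called, against 15.4% of all genes in that fit. Leaving out SF1 replicate 2 gave 6 lower, with 17.4% of the list called, against 8.79% of all genes in that fit. Without WT replicate 1 the median log2 fold change was -0.107. Rab3gap1 and Rab3gap2, whose products form a complex that inactivates Rab3 and activates Rab18, fell together. Rab3gap1 was at 70.6, 71.0 and 62.3 CPM in SF1 and 118 and 101 CPM in WT (log2 fold change -0.69 with an SE of 0.11, adjusted p = 0.00362). Rab3gap2 was at 70.9, 67.3 and 64.8 CPM in SF1 and 119 and 101 CPM in WT (log2 fold change -0.71 with an SE of 0.10, adjusted p = 0.00262). Both were called in all 13 alternatives. Dennd5a, a DENN-domain exchange factor for Rab39, rose 1.92-fold, from 80.7 and 70.8 CPM in WT to 151, 140 and 147 CPM in SF1 (adjusted p = 0.000577), also called in all 13. Sbf1, a DENN-domain gene of the myotubularin family, had a log2 fold change of -0.58 (adjusted p = 0.00516; 0.0722 after GC and length correction).

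Genes known to act on the called Rabs, and on Rab7, Rab32 and Rab38, were chosen for naming after their values were seen. Ankrd27, which encodes an exchange factor of Rab21, was at 71.8, 71.7 and 77.8 CPM in SF1 and 96.3 and 89.1 CPM in WT (log2 fold change -0.33, adjusted p = 0.0406), a call lost without any 1 of the 5 libraries (adjusted p up to 0.244 over the alternatives). Madd, an exchange factor gene for Rab3 and Rab27, had a log2 fold change of -0.30 (adjusted p = 0.0441), a call lost in 6 of 13 alternatives, among them the omission of SF1 replicate 1, 2 or 3 or WT replicate 1. Dennd3, an exchange factor gene for Rab12, was at 34.0, 35.2 and 32.9 CPM in SF1 and 46.8 and 36.2 CPM in WT (adjusted p = 0.163). Hps4, part of the exchange factor of Rab32 and Rab38, had a log2 fold change of -0.58 (adjusted p = 0.00681, or 0.0532 with WT replicate 1 left out), while its partner Hps1 did not pass (adjusted p = 0.443). Mon1b, part of the exchange factor of Rab7, had a log2 fold change of -0.63 (adjusted p = 0.0134). Its call was lost in 2 of 13 alternatives, among them the omission of SF1 replicate 2. Mon1a (0.27, adjusted p = 0.203) and Ccz1 (0.15, adjusted p = 0.278) did not pass. Also called higher among exchange factor genes were Trappc1 (0.60, adjusted p = 0.0131) and Rab3ip (0.53, adjusted p = 0.0354), calls lost in 2 and 5 of 13 alternatives.

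Among GTPase-activating protein genes, all 34 were tested, 6 fell, 3 rose and 25 did not pass. The median log2 fold change was -0.23, and 26.5% were called, against 16.5% of all genes tested. After GC and length correction 3 were lower and 3 higher, with 17.6% called, against 15.4% of all genes in that fit. With an SF1 library left out 3 to 4 were lower and 0 to 3 higher. Without SF1 replicates 1, 2 and 3 in turn, 17.6%, 8.82% and 14.7% were called. Of all genes, 15.3%, 8.79% and 9.19% were called in those fits. Without WT replicate 1 the median log2 fold change was -0.156. Sgsm1 was at 17.8, 8.50 and 11.4 CPM in SF1 and 52.1 and 42.3 CPM in WT, 3.80-fold lower (log2 fold change -1.93, SE 0.25, adjusted p = 0.00171) and called in all 13 alternatives. Tbc1d20, which acts on Rab1 and Rab18, had a log2 fold change of -0.72 (adjusted p = 0.0031), with 58.3, 52.7 and 63.5 CPM in SF1 and 99.3 and 91.8 CPM in WT. Tbc1d24 was 2.32-fold lower (adjusted p = 0.00615, or 0.0722 with WT replicate 1 left out). Tbc1d13, which acts on Rab35, was 2.32-fold higher (adjusted p = 0.0141, or 0.0542 with SF1 replicate 2 left out and 0.12 with WT replicate 1 left out). Tbc1d10a, which acts on Rab27a and was named after its values were seen, had a log2 fold change of -0.46 (adjusted p = 0.0363). This call was lost in 7 of 13 alternatives, among them every omission of a library. Its relatives Tbc1d10b and Tbc1d10c did not pass (adjusted p = 0.71 and 0.189).

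Effector genes of endosomal Rabs had 29 tested of 31, with 2 higher, 3 lower and 24 not passing (median log2 fold change -0.05). The calls are 17.2% of those tested, against 16.5% of all genes tested. Lrrk1, a kinase gene whose product acts on Rab7, was at 64.0, 59.2 and 72.0 CPM in SF1 and 105 and 97.0 CPM in WT (log2 fold change -0.64, adjusted p = 0.00516) and was called in all 13 alternatives. Ehbp1l1, an effector gene of Rab8 and Rab10, had a log2 fold change of -0.63 (adjusted p = 0.00882, or 0.0556 with WT replicate 1 left out), and of -0.36 after GC and length correction (adjusted p = 0.0559). Rbsn, whose product rabenosyn-5 binds Rab4 and Rab5, had a log2 fold change of -0.47 (adjusted p = 0.0275) and Rilpl2 rose by 0.44 (adjusted p = 0.0243). Rbsn lost its call in 6 of 13 alternatives, among them the omission of SF1 replicate 2 or 3 or of either WT replicate. Rilpl2 lost its call in 4, among them the omission of SF1 replicate 2 or 3 or WT replicate 1. Of 14 effector genes of Golgi Rabs, all tested, 1 fell: Mical1, a Rab-binding monooxygenase gene (log2 fold change -0.54, adjusted p = 0.0169, or 0.133 with WT replicate 1 left out and 0.12 after GC and length correction). The median of that list was -0.05, and 7.14% of it was called, against 16.5% of all genes tested. With no gene of it higher by edgeR, DESeq2 or limma voom, Trip11 was higher at an unadjusted p of 0.028 (adjusted p = 0.109). Bicd2, the Rab6 motor adaptor gene, and Golga2, the gene of a Golgi matrix protein that binds Rab1, did not pass (adjusted p = 0.0629 and 0.183).

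Genes for granule docking and release included the largest fold among the called genes of the Rab cycle. Of 43 genes, 36 were tested, 3 rose, 4 fell and 29 did not pass (median log2 fold change 0.02). The calls are 19.4% of those tested, against 16.5% of all genes tested. Sytl4, which encodes granuphilin, an effector that links Rab27 and Rab3 on granules to the membrane fusion machinery, was at 7.87, 3.85 and 6.25 CPM in SF1 and 38.6 and 40.2 CPM in WT. It was 6.62-fold lower (log2 fold change -2.73, SE 0.23, adjusted p = 0.000343) and was called in all 13 alternatives, while Rab27a itself was 1.68-fold higher. Sytl2, of the same family, was 3.24-fold lower at 5.11, 2.28 and 2.21 against 12.6 and 7.52 CPM (adjusted p = 0.0183), and leaving out SF1 replicate 2, SF1 replicate 3 or WT replicate 1 ended its call. Unc13d, the Rab27a effector gene of granule priming, had a log2 fold change of -0.61 (adjusted p = 0.0208), a call lost without WT replicate 1 and after GC and length correction. Sytl1, more abundant than its relatives Sytl2 and Sytl4, was at 74.9, 60.5 and 68.8 CPM in SF1 and 80.7 and 76.6 CPM in WT. It did not pass (log2 fold change -0.21, adjusted p = 0.227). Sytl1, Sytl2, Unc13d and Myo5a were named after their values were seen.

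Hps6, a subunit gene of a complex that builds lysosome-related organelles, was at 8.72, 9.46 and 4.96 CPM in SF1 and 22.9 and 23.1 CPM in WT, 2.98-fold lower (adjusted p = 0.00373). Bloc1s2, from another such complex, was at 61.6, 67.3 and 73.1 CPM in SF1 and 40.8 and 40.3 CPM in WT (log2 fold change 0.73, adjusted p = 0.00358). Hps6 and Bloc1s2 were called in all 13 alternatives. Vamp8, a vesicle fusion gene, rose by 0.57 on the log2 scale (adjusted p = 0.00729, or 0.0593 with WT replicate 1 left out), and Myo5a, a motor gene that carries Rab27a-coated organelles, by 0.42 (adjusted p = 0.029). The Myo5a call ended when SF1 replicate 2, SF1 replicate 3 or either WT replicate was left out. The melanosome adaptor gene Mlph had no reads in any library.

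**Figure D4:**
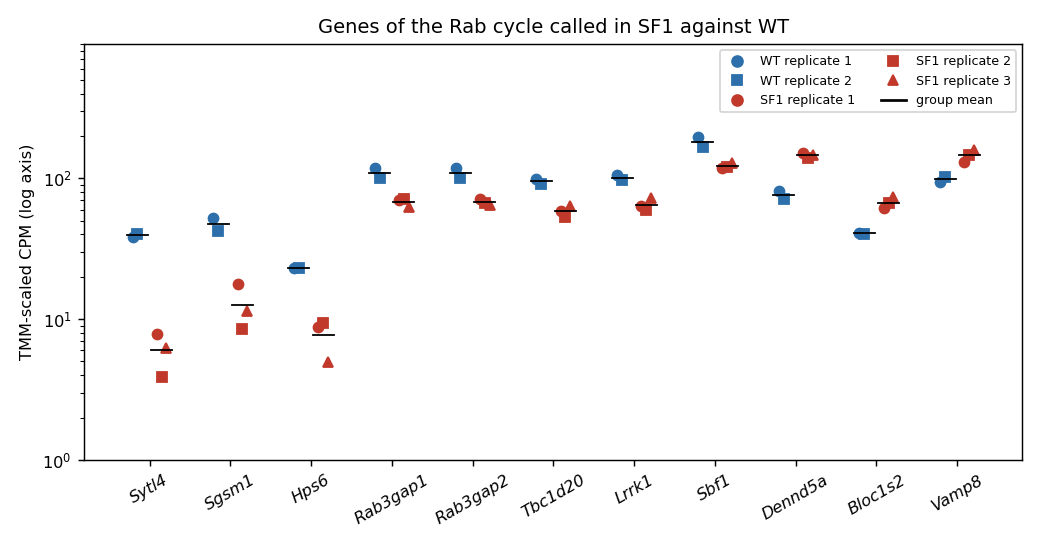
TMM-scaled CPM on a log axis in each library for 11 called genes of the Rab cycle, with black lines at group means. Sytl4, Sgsm1 and Hps6 show the SF1 points well below the WT points, Rab3gap1, Rab3gap2, Tbc1d20, Lrrk1 and Sbf1 lie lower by less than 2-fold, and Dennd5a, Bloc1s2 and Vamp8 lie higher.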

How the data were processed

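RNA of 5 libraries of sorted CLPs was sequenced after SMART-Seq amplification, which does not mark the strand and has no molecular identifiers, per the labels' protocols. The authors deposited raw counts per gene, with no normalization. FastQC, HISAT2 2.2.1 and featureCounts 2.0.1 with GRCm38 were used, per the submitters' processing notes. For the annotation release, the strand setting and multimapping reads, the setting is not given in the sources. Symbols and exon lengths came from GENCODE M21, which matched 55227 of 55487 identifiers. The other 260 hold 0.0123% of counts.

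Genes passing filterByExpr (minimum count 10) were tested with edgeR 4.0.16 (R 4.3.3; TMM, quasi-likelihood F test, no covariate). Alternatives were DESeq2 1.42.0, limma 3.58.1 voom with sample weights, another scaling, 2 other filters, thinning, a replicate block, GC and length correction (mgcv 1.9.3) and each library left out. Counts were also simulated for SF1 against WT (14385 genes tested), with 200 genes changed and the same coefficient of variation, 0.122, for every gene. There edgeR recovered 12% of genes with a log2 change of 0.5, 77.6% of those with 1 and 100% of those with 2. Of 145 calls, 5 were false. Recovery can be lower for real genes with a wider spread. No 2 libraries were repeats of each other: chi-square per degree of freedom was 6.89 or more.

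Named by rule were all called Rab genes, those whose call changes with a library left out, the 2 highest per role, granule members of at least 1 CPM and the 4 smallest p of each regulator list. Other genes named were chosen after their values were seen. For 1 gene under this rule the result is not reported here. Members and lists were chosen with earlier results of these data known. Exon overlaps with other genes were listed for each member. No called Rab gene had a copy elsewhere at 95% identity over 200 bases.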

Additional observations from a re-analysis of the deposited data

How the results depend on the processing

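Rab21, Rab24 and Rab7b were called under all 13 alternatives. Over all genes 2382 were called, and 3317 with no filter (26875 tested). Deviations from the group mean of same-numbered SF1 and WT libraries correlated at 0.046 and 0.062. With 2 WT libraries their deviations mirror each other, so these values cannot decide whether the shared replicate numbers pair the samples. With the replicate block, 574 genes were higher and 945 lower, 1 granule Rab was higher, the lists of endosomal effectors and of escort and prenylation genes had 0 higher, and 3 GTPase-activating genes were lower. Rab44 and Rab20 lost their calls with the block (adjusted p = 0.05 and 0.106). Medians with the block were 0.08 for endosomal Rabs, 0.219 for granule Rabs (7 of 10 above 0), -0.108 for endosomal effectors, -0.049 for granule release and -0.168 for GTPase-activating genes, and Rab3d (-0.029) and Chml (0.039) changed sign.

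With DESeq2, 1 Rab gene, of the ER-Golgi group, was lower. After GC and length correction 1 ER-Golgi Rab, 1 endosomal effector, 0 Golgi effectors, 4 exchange factors and 3 GTPase-activating genes were lower. Medians there were 0.053 for endosomal and -0.03 for ER-Golgi Rabs, 0.025 for endosomal effectors, -0.058 for exchange factors and -0.054 for GTPase-activating genes, and Rab11a (-0.083), Rab29 (-0.058) and Rab2a (-0.085) changed sign. With limma voom 2 Golgi effectors were lower and the endosomal median was 0.121. With no filter 1 endosomal effector was higher, and 2 Golgi effectors and 10 GTPase-activating genes were lower, with medians of 0.062 for endosomal and 0.097 for other Rabs. The stricter filter left 5 exchange factors higher and an endosomal median of 0.115, and removed Rab20. Relative log expression scaling left 0 escort and prenylation genes higher. Thinning gave medians of -0.089 for Golgi effectors and 0.066 for granule release. The cause of these shifts was not tested.

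With each library left out in turn, 464 to 905 genes were higher and 522 to 1265 lower. Where a WT library was left out, the lone other was assumed to vary like the SF1 group. Rab genes were higher in 3 to 7 cases and lower in 0 to 1, endosomal Rabs higher in 2 to 4 and lower in 0 to 1, and granule Rabs higher in 0 to 3. Endosomal effectors had 0 to 2 higher and 1 to 3 lower, Golgi effectors 0 to 1 lower, exchange factors 1 to 2 higher and 3 to 11 lower, escort and prenylation genes 0 to 1 higher, granule release 1 to 3 higher and 2 to 4 lower, and GTPase-activating genes 0 to 3 higher and 2 to 5 lower. Medians ran from 0.086 to 0.165 for endosomal Rabs, 0.177 to 0.536 for granule Rabs, -0.115 to 0.075 for other Rabs, -0.121 to -0.008 for endosomal effectors, -0.136 to 0.012 for Golgi effectors, -0.018 to 0.065 for granule release and -0.315 to -0.156 for GTPase-activating genes. Over these omissions the log2 fold change of Rab3d ran from -0.08 to 0.206, that of Rab5c from -0.987 to 0.246 and that of Chml from -0.724 to 0.045, each with a change of sign. Rab3d was at -0.04 and Chml at 0.045 without SF1 replicate 3. Depth limits the least abundant members, such as Rab20.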
